A study of Mus musculus with 2 samples.

Results

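The proteasome genes are the protein-coding genes of the mouse GRCm38 annotation whose symbols begin with Psma, Psmb, Psmc, Psmd, Psme, Psmf or Psmg. The rule found 50 genes among 21755 protein-coding genes on chromosomes 1 to 19 and X, and 4 pseudogenes with such symbols were left out. Their promoters were examined by DNase-seq, in which the enzyme DNase I digests the DNA of isolated nuclei and cuts most often where chromatin is open. The tissue was cerebral cortex of the left side, from 2 males of B6CASTF1/J, a first-generation hybrid of a laboratory strain and a castaneus-derived strain, aged 36 days and obtained from The Jackson Laboratory. There was 1 library per mouse, called replicate 1 and replicate 2, and no treatment is named. Both mice form 1 group, so nothing could be compared between conditions. The labels number them as different males, although the donor entry is 1 and the same, and errors are the SD over these 2 mice.

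The proteasome degrades proteins that have been tagged with ubiquitin. Its core particle, the 20S proteasome, is a stack of rings: outer rings of alpha subunits form the gate, and inner rings of beta subunits hold the proteolytic sites. The 19S regulatory particle binds ubiquitinated substrates, unfolds them with a ring of ATPases and feeds them to the core, while the PA28 and PA200 activators open the gate without unfolding. In immune cells and under interferon, Psmb8, Psmb9 and Psmb10 replace the catalytic subunits Psmb5, Psmb6 and Psmb7 to give the immunoproteasome, whose products favour presentation by MHC class I molecules. Psmb11 takes the place of Psmb5 in the thymic cortex, and Psma8 is an alpha subunit of male germ cells. In neurons, proteasomes take part in the turnover of synaptic proteins.

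A promoter peak was a peak of the authors' shorter list that came within 1 kb of any annotated start of the gene, and the promoter height of a gene was the height of its highest such peak, with 0 where none was listed. Heights were read as DNase I cuts scaled to library depth, because within a library each was a whole number of equal steps. Those steps put the libraries at 160.1 and 145.4 M cuts, with 72021 and 59150 peaks. At the median proteasome promoter the height stood for 809 and 479 steps, a counting error of 3.52% and 4.57% that covers counting alone. Among markers of cell types, 8 of 8 genes of cortical neurons and 3 of 5 of astrocytes had a promoter peak in each mouse. Of 10 microglial genes, 3 and 2 had a peak. None of 6 lymphocyte genes had one, and for endothelium the count was 1 and 0 of 4. For comparison, 63.5% and 58.4% of all protein-coding genes had a promoter peak, a share near that of the astrocyte genes.

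Of the 50 proteasome genes, 47 had a promoter peak in replicate 1 (94%) and the same number in replicate 2 (94%). Over all protein-coding genes the share was 63.5% in replicate 1 and 58.4% in replicate 2, and 57.7% had a peak in both mice. All 31 constitutive subunits of the 20S and 19S particles had a peak in both mice. The 3 genes with no peak in either mouse were Psma8, the alpha subunit of germ cells, Psmb11, the beta subunit of the thymus, and Psme2b, an intronless copy of Psme2. For comparison, 35.7% of protein-coding genes had a peak in neither mouse. With the longer of the authors' peak lists the mean share of proteasome genes was 96% ± 2.83 (SD, n = 2 mice), against 67.8% and 64.0% of protein-coding genes. All 76 genes of cytosolic ribosomal proteins, another set that cells of every kind use, had a peak in both.

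The median promoter height of the 50 genes was 5.003 in replicate 1 against 3.25 in replicate 2, a mean of 4.12 ± 1.24 (SD, n = 2 mice). Protein-coding genes as a whole had medians of 2.05 and 1.04 (1.54 ± 0.71, SD, n = 2 mice), with genes without a peak counted as 0. Among genes with a peak in both mice, the medians were 5.05 and 3.30 for the 47 proteasome genes and 4.79 and 2.69 for 12548 protein-coding genes. Ribosomal protein genes had higher medians, 6.45 and 4.48 (5.46 ± 1.39, SD, n = 2 mice). The 31 constitutive subunits had medians of 5.40 and 3.46 (4.43 ± 1.37, SD, n = 2 mice). Proteasome promoters were thus nearly always listed as open, at heights near those of other open promoters. Within each mouse their median was somewhat the higher, 5.05 against 4.79 and 3.30 against 2.69, which was not tested. The distance between these medians was smaller than the difference between the mice, but both sets of genes shared that difference.

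**Figure D1:**
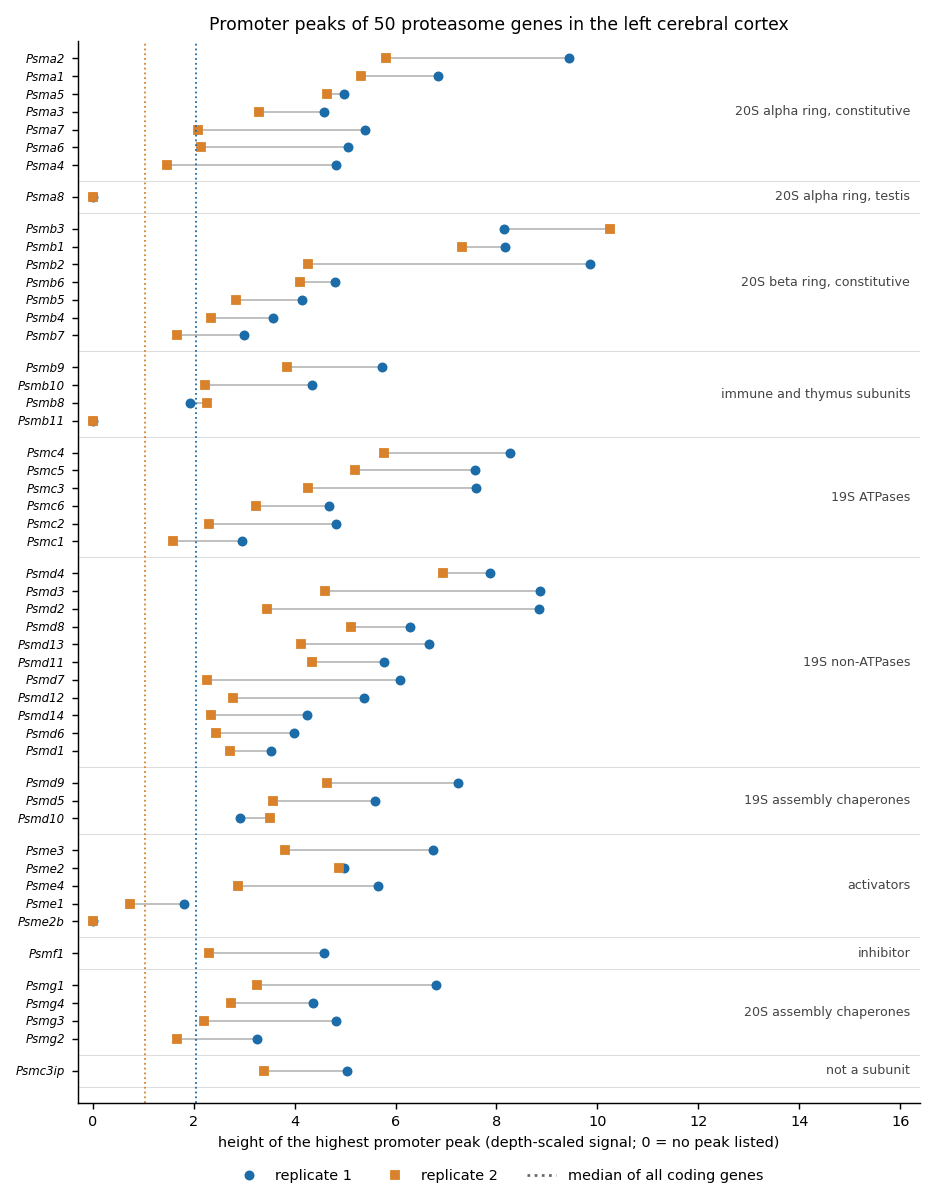
Height of the highest promoter peak (horizontal axis, depth-scaled signal) of each of the 50 proteasome genes (rows, grouped by role) in replicate 1 (circles) and replicate 2 (squares), with grey lines joining the mice and dotted lines at the medians of all protein-coding genes, 2.05 and 1.04. All constitutive subunits lie to the right of the median line of their own mouse, Psma8, Psmb11 and Psme2b lie at 0, and circles lie to the right of squares for 44 of 47 genes.

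The constitutive alpha ring had a median height of 5.05 in replicate 1 and 3.30 in replicate 2 over its 7 genes. Psma2, whose promoter also serves the mitochondrial ribosomal protein gene Mrpl32 on the other strand, was the highest at 9.44 and 5.81. Psma4 was the lowest by its mean, at 4.82 in replicate 1 and 1.47 in replicate 2. In replicate 1 the alpha genes other than Psma1 and Psma2 lay between 4.57 and 5.40, and in replicate 2 the same 5 genes spread from 1.47 at Psma4 to 4.64 at Psma5. The testis paralogue Psma8 was at 0 in both mice. In the authors' list of bases with a cut rate at a false discovery rate of 0.05 or less, Psma8 had 116 bases within 250 bp of a start in replicate 1, with a lowest q of 0.0244, and none in replicate 2. Of 4 testis germ cell markers only Dazl had a promoter peak, in both mice.

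The constitutive beta ring spread more widely. Psmb3, a structural subunit, was highest at 8.14 in replicate 1 and 10.25 in replicate 2, and was the highest proteasome promoter of replicate 2. Psmb2, also structural, was the highest of replicate 1 at 9.84 but reached 4.27 in replicate 2. Psmb1 stood at 8.16 and 7.32, from a peak nearest to a start of Tbp, the TATA-binding protein gene on the other strand. A further peak, which covered a Psmb1 start and lay 1440.5 and 1420.5 bp inside the gene record, had heights of 6.86 and 3.46. Psmb4, a structural subunit, reached 3.57 and 2.35.

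By the height of the highest promoter peak, the catalytic beta subunits and their immune replacements did not differ in 1 direction. Psmb5, which carries the chymotrypsin-like site, had heights of 4.15 in replicate 1 and 2.83 in replicate 2. Psmb8, which replaces it in the immunoproteasome, had 1.93 and 2.26. Psmb8 was the lower of this pair in both mice, and the ranges over the mice did not overlap. Psmb6, which carries the caspase-like site, had 4.79 and 4.11. Its replacement Psmb9 had 5.73 and 3.85, higher in replicate 1 and lower in replicate 2, from a peak shared with Tap1. Psmb7, which carries the trypsin-like site, had 2.998 and 1.66. Its replacement Psmb10 had 4.35 and 2.23, higher in both mice with ranges that overlapped. That order rests on a Psmb10 peak inside the gene. Within 1 kb of the Psmb10 coding start, the highest peak was 1.499 in replicate 1 and none was listed in replicate 2. By those values Psmb10 was the lower of the pair in both mice.

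By mean height the order was Psmb9 at 4.79 ± 1.33, Psmb6 at 4.45 ± 0.48, Psmb5 at 3.49 ± 0.93, Psmb10 at 3.29 ± 1.502, Psmb7 at 2.33 ± 0.94 and Psmb8 at 2.097 ± 0.24 (SD, n = 2 mice each). Each neighbouring pair in that order had ranges over the mice that overlapped. These ranges include the difference between the libraries that most genes shared, so overlap does not show whether genes differ within a mouse. Psmb6 stood above Psmb5, and the internal peak of Psmb10 above Psmb7, in both mice. The other neighbouring pairs changed order between the mice. Psmb6 and Psmb9 each stood above Psmb7 and Psmb8 in both mice without overlap. With 2 mice no exact test can pass the usual threshold, and none was made.

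The genes also differed in where the peak lay, among constitutive as well as immune subunits. At Psmb5 and Psmb6 the peak covered the coding start, and its midpoint was at -18.5 bp from the nearest start in both mice at Psmb5 and at -6.5 and -36.5 bp at Psmb6, where a minus sign means before the start. At Psmb7 the peak covered a start of a non-coding transcript, at 38643920 on chromosome 2, in both mice. Its coding start, at 38644087, lay 27 bp outside the peak in replicate 1 and inside it in replicate 2. At Psmb8 (chromosome 17, 34197721 to 34201454, + strand) the midpoint lay at -60.5 bp from the first start in both mice, and the peak covered that start. The coding start of its basic annotation, at 34197790, lay 10 and 30 bp outside the peak. Within 100 bp of that start, 201 and 120 bases were in the list of cut rates, with lowest q values of 1.1e-14 and 3.3e-19. At Psmb9 (chromosome 17, 34181987 to 34187764, - strand) the peak covered starts of non-coding transcripts at 34187353 and 34187365. It lay 204 and 244 bp from the start of the coding transcript in the basic annotation, at 34187764. Within 100 bp of that start all 201 bases were in the list of cut rates in both mice, with lowest q values of 1.3e-13 and 6.2e-11. The Psmb9 peak is also the promoter peak of Tap1, the peptide transporter gene on the other strand. The height of Psmb9 is thus also that of Tap1, and the signal cannot be divided between them.

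At Psmb10 (chromosome 8, 105935735 to 105938444, - strand) no peak covered the coding start at 105938444. The nearest peak lay 259 bp away with a height of 0.956 in replicate 1, and 1244 bp away in replicate 2. The highest peak, 105937001 to 105937340 in replicate 1 and 105936941 to 105937200 in replicate 2, lay mostly in intron 4, with 240 and 219 of its bases there. It took in 100 bases of coding exon 4 in replicate 1 and 41 bases of coding exon 5 in replicate 2. Annotated starts of non-coding transcripts at 105937025, 105937027 and 105937038 fall inside it. In the list of cut rates, 88 bases within 100 bp of the coding start were listed in replicate 1, with a lowest q of 0.0128, and none in replicate 2. Around the start at 105937038 all 201 bases were listed in both mice, with lowest q values of 9.1e-31 and 1.2e-15. The count of immune subunits with a promoter peak therefore rests on an internal site for Psmb10: with starts of coding transcripts alone, 3 of the 4 immune and thymus genes had a peak in replicate 1 and 2 in replicate 2.

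Psmb11 lies next to Psmb5 on chromosome 14, in the opposite orientation (Psmb5 54614119 to 54618022, - strand, and Psmb11 54621433 to 54629556, + strand). No peak was listed within 1 kb of a Psmb11 start in either mouse. The nearest peak to the first start, 3293 bp away, was the Psmb5 promoter peak. In the longer list replicate 1 had a peak of 0.756 within 1 kb, and replicate 2 had none. In the list of cut rates, Psmb11 had 96 bases within 250 bp of a start in replicate 1, with a lowest q of 0.0046, and none in replicate 2. None of these bases lay within 100 bp of a start. Foxn1, the factor that defines thymic epithelium, also had no peak. Ccl25, another gene on that marker list, had peaks of 9.74 and 5.99, Aire of 0.974 and 0.674, and Prss16 of 0.912 in replicate 1 alone, so 3 and 2 of the 4 marker genes had a peak.

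**Figure D2:**
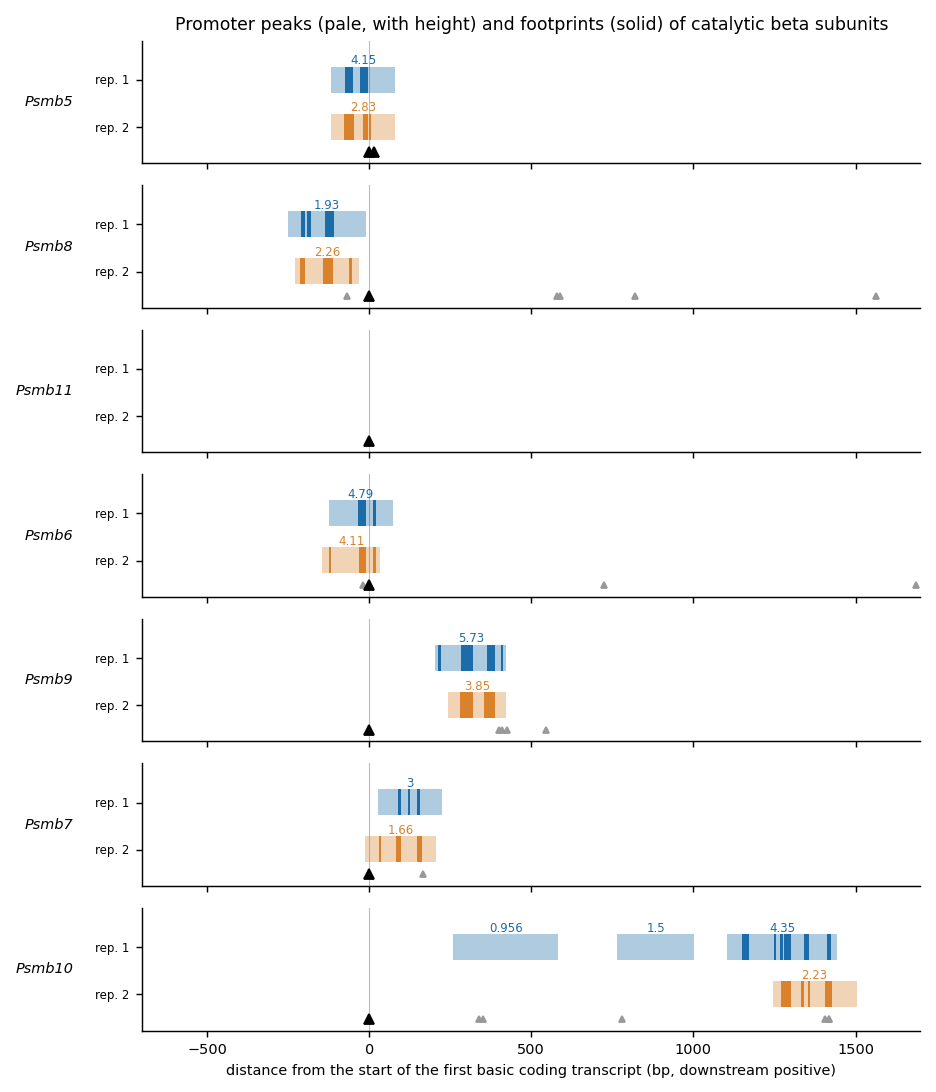
Promoter peaks (pale bars, with their heights) and footprints (solid bars) of the catalytic beta subunits and their replacements in both mice, by distance in bp from the start of the first coding transcript of the basic annotation (black triangles; grey triangles are other annotated starts). Peaks cover that start in Psmb5 and Psmb6 in both mice and in Psmb7 in replicate 2. They end 27 bp from it in Psmb7 in replicate 1, 10 and 30 bp from it in Psmb8, and 204 and 244 bp from it in Psmb9. Beyond it, inside the gene, lies the highest peak of Psmb10, and Psmb11 has none.

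The sequences below show what lies under the peaks of 3 of these genes, as 110 bases each of the GRCm38.p6 reference on the strand of the gene. The reference is of the laboratory strain, so the castaneus allele that these hybrids also carry may differ from it. Psmb5 (chr14:54618023-54618132) is the stretch just before the start, and its capitals mark a match to TGACNNNGC, the core of the antioxidant response element read by NFE2L1 and NFE2L2. Psmb8 (chr17:34197611-34197720) is the stretch just before its first start, with capitals at the cyclic AMP response element TGACGTCA. Psmb10 (chr8:105937051-105937160) lies in intron 4, with capitals at both matches to the ETS core CCGGAAG.
Psmb5: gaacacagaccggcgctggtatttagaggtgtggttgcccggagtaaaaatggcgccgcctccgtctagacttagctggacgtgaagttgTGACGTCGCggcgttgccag
Psmb8: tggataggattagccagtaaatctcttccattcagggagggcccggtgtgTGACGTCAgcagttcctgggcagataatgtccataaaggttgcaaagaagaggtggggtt
Psmb10: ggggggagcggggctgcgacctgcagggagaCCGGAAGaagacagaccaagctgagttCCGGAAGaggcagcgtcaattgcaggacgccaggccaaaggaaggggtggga
Footprints, short stretches inside a peak where cuts are depleted, covered 48 and 47 of the Psmb5 bases in replicate 1 and 2, 28 and 30 of the Psmb8 bases, and 32 and 36 of the Psmb10 bases. The response element of Psmb8 lay inside a footprint in both mice.

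The 6 ATPases of the 19S base had median heights of 6.199 and 3.76. Psmc4 was the highest at 8.28 and 5.76. Psmc1 was the lowest at 2.97 and 1.59, and both of its values lay under the lowest value of Psmc4, so these genes differed by more than the mice did. Over the 11 non-ATPase subunits the medians were 6.09 and 3.46. Psmd4, a receptor for ubiquitin chains, had the highest mean at 7.87 and 6.94. Psmd1, a large scaffold subunit, had the lowest at 3.52 and 2.72. Psmd2, another scaffold subunit, was higher than Psmd4 in replicate 1 at 8.85 but lower in replicate 2 at 3.46.

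Assembly chaperones and regulators had peaks as well. Among the chaperones of the 19S base, Psmd9 was highest at 7.23 and 4.64, from a peak 58827.5 and 58797.5 bp inside its gene record, which begins at an upstream start. Psmd10, also known as gankyrin, had 2.92 and 3.52 and is the only X-linked gene of the 50, present in 1 copy in males. Of the 20S chaperones, Psmg1 had 6.80 and 3.25 and its partner Psmg2 had 3.26 and 1.67. Psmf1, which encodes the inhibitor PI31, had 4.58 and 2.30. Psmc3ip, a factor of meiotic recombination that the symbol rule takes in though it is no subunit, had 5.03 and 3.38.

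The activators ran from no peak, at Psme2b, up to 6.73 in replicate 1 and 4.88 in replicate 2. Psme3, the nuclear PA28 gamma, had the highest mean, with 6.73 and 3.82, though Psme2 stood above it in replicate 2. Psme1, which encodes PA28 alpha, was the lowest proteasome promoter that had a peak, at 1.80 and 0.743. Its partner gene Psme2, PA28 beta, had 4.97 and 4.88. That Psme2 value came from a peak nearest to Rnf31, on the other strand, with its midpoint at -537.5 bp from the Psme2 start, and the peak at the Psme2 start itself had 4.00 and 3.90. So Psme1 stayed below Psme2 in both mice on either reading. Psme2b had no listed base within 250 bp of its start in either mouse. In replicate 1, Psmb8 and Psme1 were the only genes with a peak under the median of all protein-coding genes, and in replicate 2 only Psme1 was.

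Promoters were higher in replicate 1 for 44 of the 47 genes with a peak in both mice, as for 91.1% of all such protein-coding genes. The median ratio of replicate 1 to replicate 2 was 1.62 for proteasome genes and 1.65 for all genes, so the genes followed the difference between the libraries. The 3 exceptions were Psmb3 with a ratio of 0.795, Psmd10 with 0.830 and Psmb8 with 0.853. The ratio was largest at Psma4 (3.29), followed by Psmd7 (2.68), Psma7 (2.59), Psmd2 (2.56) and Psme1 (2.42). With 1 library per mouse, a difference between the animals and a difference between the libraries cannot be told apart.

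**Figure D3:**
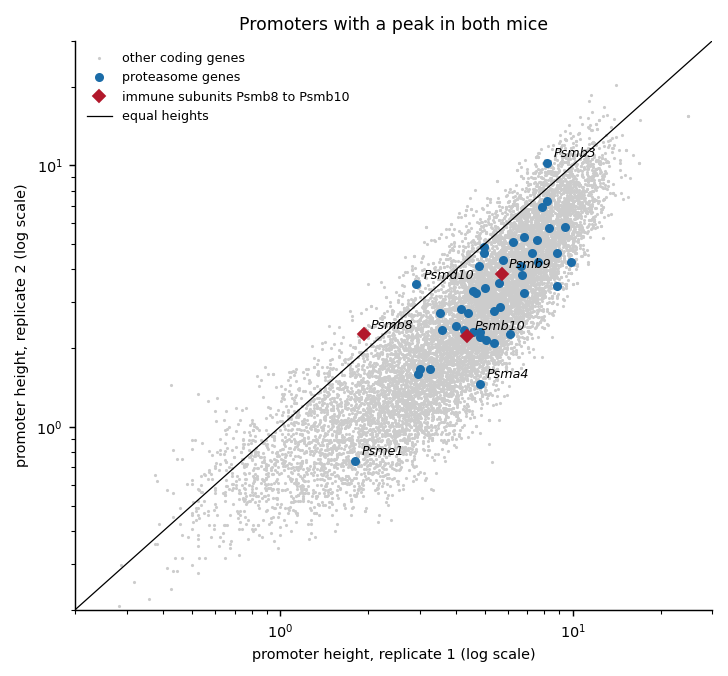
Promoter height in replicate 1 (horizontal) and replicate 2 (vertical), both on log axes, for protein-coding genes with a peak in both mice (grey), proteasome genes (blue) and the immune subunits Psmb8 to Psmb10 (red), with a line at equal heights. Proteasome genes lie within the cloud of other genes, and Psmb3, Psmd10 and Psmb8 are those above the line.

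The highest peak covered an annotated start of its gene for 44 of 47 genes in replicate 1 and 40 of 47 in replicate 2. Its midpoint lay within 150 bp of one for 46 and 44. Starts of non-coding transcripts were included. The same shares were not taken over all coding genes, so these counts do not set proteasome genes apart. Its median width was 220 bp in both mice. An opposite-strand start of another coding gene lay within 1 kb of the highest peak for 11 of 47 genes (23.4%) in each mouse, against 17.5% and 18.5% of all coding genes with a peak. These pairs were Psma2 with Mrpl32, Psma4 with AY074887, Psma7 with Ss18l1, Psmb1 with Tbp, Psmb9 with Tap1, Psmc2 with Dnajc2, Psmc5 with Ftsj3, Psmd10 with Atg4a, Psmd13 with Sirt3, Psme2 with Rnf31 and Psmg2 with Cep76. In 5 and 7 genes the highest peak was nearest to a start of another coding gene, a share likewise not taken over all coding genes. Peaks inside the gene and more than 1 kb from the starts of every coding gene were found in 6 and 5 of the 50 genes (12% and 10%). Over all coding genes the shares were 33.7% and 30.9%. Proteasome genes were shorter, with a median of 11638 bp against 17414 bp, and the part of length in that count was not tested.

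CpG content was taken over 1 kb around the highest peak, as the number of CpG dinucleotides over the number that base composition alone gives. Its median was 0.746 and 0.734 at proteasome promoters, 0.740 and 0.733 at all coding promoters with a peak, and 0.822 and 0.825 at ribosomal promoters. Under a ratio of 0.5 lay 2 proteasome promoters (4.26%) in each mouse, against 14.5% and 16.3% of coding promoters. These were Psmd10, at 0.383 and 0.364, and Psme1, at 0.405 in both. Psmb10 and Psmb8 came next in replicate 1, at 0.540 and 0.556.

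**Figure D4:**
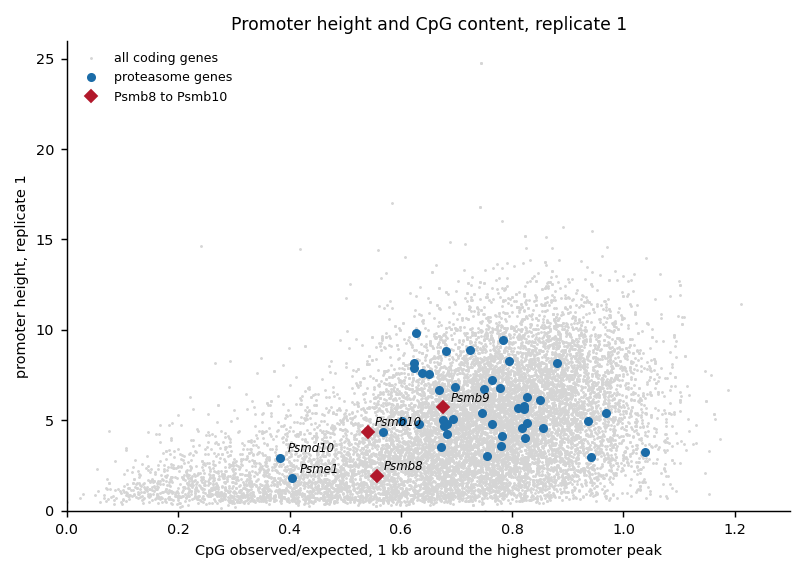
CpG observed over expected in 1 kb around the highest promoter peak (horizontal) and promoter height in replicate 1 (vertical, depth-scaled signal) for all coding genes with a peak (grey), proteasome genes (blue) and Psmb8 to Psmb10 (red). The lowest ratios among proteasome genes are those of Psmd10 at 0.383 and Psme1 at 0.405, and the other genes lie from 0.540 of Psmb10 upward.

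Of 60 promoter peaks of proteasome genes in replicate 1 and 62 in replicate 2, 93.3% and 90.3% held at least 1 whole footprint (91.8% ± 2.13, SD, n = 2 mice). Over promoter peaks of all coding genes the share was 80.6% and 85.3%. Among those whose height lay between the quartiles of the proteasome promoter heights it was 99.6% and 99.7%. That range leaves out weak peaks, which the share of the proteasome peaks includes, so those shares cover unlike sets of peaks. Among the highest peaks, 47 of 47 in replicate 1 and 46 of 47 in replicate 2 held one, and the exception was Psme1. The median number was 5 and 4 per highest peak, the same as over all coding genes. Footprints of the highest proteasome peaks touched a footprint of the other mouse in 68.0% of 225 cases in replicate 1 and 74.3% of 183 in replicate 2. For all coding genes those shares were 55.8% and 65.0%. The deposited footprints carry no strength that differs between them, so they were used by position alone.

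Sequence patterns of 14 kinds were searched on both strands in 300 bp centred on the highest peak. The ETS core CCGGAAG was in 21 of 47 proteasome promoters in replicate 1 (44.7%) and 20 in replicate 2 (42.6%), against 18.8% and 19.6% of all coding promoters with a peak. Ribosomal promoters had it at a like rate, 40.8% and 42.1%. It was found at 19S genes such as Psmc1, Psmc2, Psmc3, Psmc6, Psmd2 and Psmd4, at the activators Psme2 and Psme4, and at the catalytic genes Psmb7 and Psmb10. Of the constitutive alpha genes only Psma6 held it. The pattern lay in a footprint over at least 50% of its length in 10 and 9 promoters (21.3% and 19.1%, against 8.32% and 8.16% of coding promoters and 17.1% and 19.7% of ribosomal ones).

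The antioxidant response core TGACNNNGC, the best known element of proteasome genes, was in 12 and 13 of the 47 promoters (25.5% and 27.7%). Over all coding promoters it was in 15.4% and 15.6%, and over ribosomal promoters in 14.5% and 15.8%. In both mice it was found at Psma1, Psma3, Psmb2, Psmb5, Psmb6, Psmb10, Psmd3, Psmd7, Psmd9, Psmd13 and Psme4. It lay in a footprint at Psmb5 and Psmd9 in both mice, at Psmb2 and Psmb6 in replicate 1 alone, and at Psmb10 and Psmg2 in replicate 2 alone. That made 4 promoters in each mouse (8.51%), against 4.95% and 5.96% of coding promoters and 3.95% and 7.89% of ribosomal ones. The 30 reference bases around the match are given for the genes where it lay in a footprint in either mouse, apart from Psmg2. They are on the strand of the gene with the core in capitals, which for Psmb10 reads on the other strand.
Psmb2: gccgcgccagTGACTGGGCcgtcgcgcgtc
Psmb5: acgtgaagttgTGACGTCGCggcgttgcca
Psmb6: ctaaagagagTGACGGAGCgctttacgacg
Psmd9: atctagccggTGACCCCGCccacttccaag
Psmb10: ttccggaagagGCAGCGTCAattgcaggac
These lie at chr4:126677619-126677648, chr14:54618024-54618053, chr11:70525338-70525367, chr5:123228149-123228178 and chr8:105937075-105937104. Footprints covered 24 and 17 of the 30 bases at Psmb5, and 21 and 24 at Psmd9.

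The interferon-stimulated response element, TTTC boxes with 2 bases of any kind between them, was in 5 promoters in both mice (10.6%), against 1.80% and 2.05% of all coding promoters and 5.26% and 7.89% of ribosomal ones. None of the 5 was an immune subunit: they were Psmb3, Psmd4, Psmd7, Psmg4 and the PA28 gene Psme1. The windows of Psmb9 and Psmb10 did not take in their coding starts, so the element may lie there unseen. The match lay in a footprint at Psmb3 alone, in both mice. The 30 bases around each match follow, with the element in capitals, which for Psmg4 reads on the other strand.
Psmb3: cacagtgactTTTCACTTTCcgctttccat
Psmd4: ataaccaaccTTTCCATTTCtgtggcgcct
Psmd7: aaggcggttcTTTCCCTTTCtcaagatggc
Psme1: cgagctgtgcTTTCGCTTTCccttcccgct
Psmg4: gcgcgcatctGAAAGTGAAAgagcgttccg
At Psmb3 (chr11:97703261-97703290) footprints covered 20 and 25 of the 30 bases, and at Psmd4 and Psme1 none.

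The YY1 pattern AAGATGGCG was in 5 promoters in both mice (10.6%), at Psmb6, Psmb7, Psmc5, Psmd7 and Psmd11. Its share was 3.82% and 3.90% over all coding promoters, and ribosomal promoters had it at a like rate, 10.5% and 9.21%. The nuclear respiratory factor (NRF1) pattern was in 6 and 8 promoters (12.8% and 17.0%, against 12% and 12.3%), and in the same 6 genes, Psma2, Psma4, Psma5, Psmc4, Psmc5 and Psmg1, it lay in a footprint in both mice (12.8%, against 10.8% and 10.7% of coding promoters). The cyclic AMP response element was at Psmb2 and Psmb8 (4.26%, against 3.90% and 4.19%), in a footprint in both mice at each (against 3.40% and 3.64% of coding promoters in a footprint). The shares of the NRF1 pattern and the cyclic AMP response element were near those of all coding promoters, unlike that of YY1. The SP/KLF box GGGCGG was in 63.8% in both mice, against 69.8% and 67.2%, and the NF-Y box CCAAT in 31.9% and 29.8%, against 36.3% and 40.4%. None of the searched windows of proteasome genes held the NF-kB pattern, the CTCF pattern or the heat shock pattern. These were in 1.58%, 0.984% and 0.282% of coding promoters in replicate 1. The interferon-gamma activated site TTCNNNGAA was in 3 and 4 promoters (6.38% and 8.51%, against 5.35% and 6.21%), with Psmb8, Psmd2 and Psmd3 in both mice. The ZBTB33 pattern was at Psmb2 and Psmd5 (4.26%, against 1.14% and 1.27%), and in 10.5% of ribosomal promoters in both mice. The E-box CACGTG was at 4 promoters in each mouse (8.51%, against 10.5% and 11.6%). A match gives the letters of the window and does not show that a factor was bound there.

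**Figure D5:**
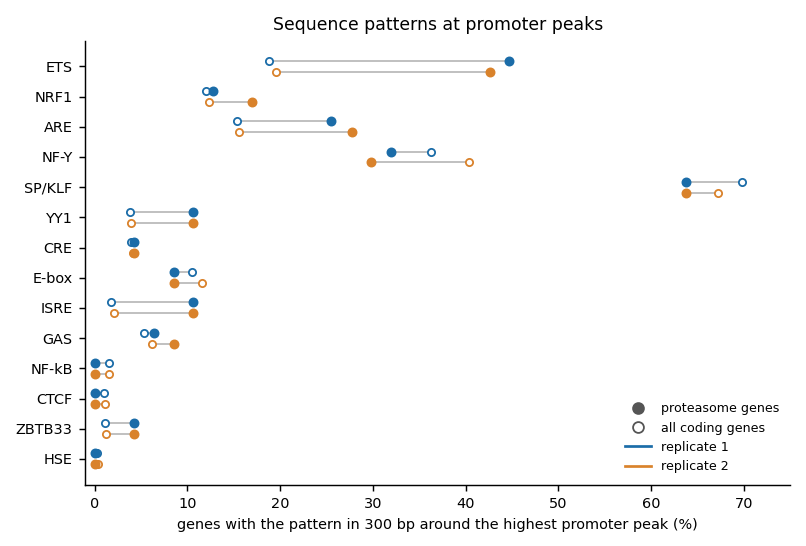
Share of promoters with each of 14 sequence patterns in 300 bp around the highest promoter peak (horizontal, percent), for proteasome genes (filled) and all coding genes with a peak (open) in replicate 1 (blue) and replicate 2 (orange). The ETS core is the widest gap, 44.7% against 18.8% in replicate 1, and the SP/KLF and NF-Y boxes lie lower in proteasome genes.

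Genes that work with the proteasome under other symbols also had promoter peaks. Of the cofactor list, 17 of 20 names were in the annotation, and all 17 genes had a peak in both mice, with medians of 8.41 and 4.13. Of all protein-coding genes 57.7% had a peak in both mice, and the medians of those genes were 4.79 and 2.69. Rad23b, a shuttle that carries ubiquitinated proteins to the proteasome, had 15.1 and 9.17, and Zfand2a, a stress-induced proteasome partner, had 10.1 and 11.1. The lowest were the shuttle Ubqln2, at 2.66 and 1.22, and the scaffold Ecpas, at 2.83 and 1.22. All 12 genes of a list on regulation by NFE2L1 had a peak in both mice, with medians of 5.13 and 3.10. It held genes of the route by which NFE2L1 regulates proteasome genes, and also Nfe2l2, Keap1 and Hsf1. Nfe2l1 itself had 8.49 and 9.50, and Vcp, the ATPase that extracts it from the endoplasmic reticulum, had 10.02 and 7.51. Its relative Nfe2l2 had 2.23 and 1.49, and the inhibitor of that factor, Keap1, had 2.998 and 1.13.

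All 20 genes of MHC class I antigen processing and the interferon response had a peak in both mice, against 57.7% of protein-coding genes. Their medians were 3.83 and 2.87, against 4.79 and 2.69 for protein-coding genes with a peak in both mice. The highest were the chaperones Calr, at 10.1 and 10.97, and Canx, at 8.38 and 7.73, which also act on other glycoproteins. By mean height the lowest were Nlrc5, the activator of class I genes, at 0.843 and 0.502, and the interferon receptor gene Ifngr2, at 1.74 and 0.626. Tap1 shares its peak with Psmb9, and Tap2, its partner in the transporter, had 2.15 and 1.23.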

How the data were processed

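DNase-seq was measured in 2 libraries, 1 per mouse, and each was used on its own. The heights in the deposited peak lists are a signal whose normalization is not stated. Every height was within 0.05 of a whole multiple of 1 step per library, and depth was inferred from that step. The deposited cut-rate list gives q-values, and it holds only bases at or under 0.05. The deposited footprint score was 0.01 in every row and was not used. No source used here names the aligner or the peak caller.

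Promoter values came from GENCODE M21 starts, with peaks of the shorter list within 1 kb of any start. Sequence came from GRCm38.p6, and coordinates are 1-based. Genes on the Y chromosome were not analysed here. Python 3.11.15, NumPy 2.4.6, pandas 2.3.3 and matplotlib 3.10.9 were used. Placement was tested on simulated data, and 200 of 200 planted peaks were placed correctly. Errors are the SD over the mice, and with 1 group no test was made.

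The members, gene lists and patterns were chosen with earlier results of these data known. Genes were named by rule: the catalytic, immune and thymus subunits, the highest and lowest gene of each class, genes without a peak, the 5 largest ratios between the mice in each direction, genes sharing a promoter, and the 2 highest and 2 lowest of each related list. Genes named for a sequence pattern, and Psmb1, Psmb2, Psmb4 and Psmd2, were picked with their values in view. Other settings tried were the second, longer list of peaks, other windows and start sites, peak midpoints, the higher 50% of peaks, equal numbers of peaks, other scaling, other footprint rules and leaving out each mouse. One more, leaving out peaks nearest to another coding gene, was added after the data were seen.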

Additional observations from a re-analysis of the deposited data

How the results depend on the processing

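The share of proteasome genes with a promoter peak was 94% and stayed at 94% with windows of 500 and 2500 bp, with peak midpoints, with equal numbers of peaks and without either mouse. It was 96% with the longer peak list, 85% with the 5′ end of the gene record alone, 93% with starts of coding transcripts alone, 93% with the higher 50% of peaks, and 87% without peaks nearest to another coding gene. The 49 related genes went from 100% to 98.0%, 96.9% and 95.9% with the gene record, the higher 50% of peaks and the peaks nearest to the gene, and stayed at 100% without either mouse. The share of promoter peaks with a footprint was 98.9% with the highest peak of each gene alone and 87.6% with the longer list, and 90.3% to 93.3% without each mouse. Leaving out each mouse gave medians of 3.25 to 5.00 for the proteasome genes and 3.46 to 5.40 for the constitutive subunits, and 3 immune and thymus subunits with a peak either way. The mean count of the latter was 3.5 with the longer list and 2.5 with the gene record or coding transcripts. No other alternative moved these values by more than the SD over the mice. No paired analysis was possible because both mice belong to 1 group, so no groups of samples share replicate numbers; genes were set side by side within each mouse without a test. With 2 libraries the SD itself is poorly known, and a promoter under the threshold of the list is counted as 0 although some cuts may fall there.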
